A study of Mus musculus with 8 samples.

Results

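Cytl1, Itgbl1, Serpinf1, Olfml2b, Arsi, Col26a1, Lcp1 and Nos1 are 8 genes whose transcripts separated skeletal stem cells (SSC) from bone cartilage and stromal progenitors (BCSP) in neonatal mouse femurs. They are 8 of the 55471 gene entries of the count table and were selected on the difference of their counts between these cell types. The first 4 were higher in BCSP and the last 4 were higher in SSC, and all 8 passed the filter on low counts that left 22153 genes. Because the SSC and BCSP columns of these same libraries chose them, their SSC and BCSP values are given as a description without a test. The comparison of Tet1 knockout (KO) with wild type (WT) mice, and that of the rounds named in the titles, were not part of the rule of choice and were tested. Earlier results of these data were known when the genes were chosen, so these tests may not be fully independent of the choice.

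The femurs came from pups at postnatal days 3 to 5, and total RNA of cells isolated by fluorescence-activated sorting was sequenced as paired reads of 150 bases. The groups were KO SSC, WT SSC, KO BCSP and WT BCSP, with 2 libraries each, named round 2 and round 1. All samples carry the strain label B6;129S4-Tet1tm1.1Jae/J, WT included, and the KO lacks a working copy of Tet1, an enzyme gene for oxidising methylated cytosine, in all cells of the animal. The labels do not tell whether the libraries of a group came from separate pups or pools, so p-values measure the spread between these samples, which may be technical.

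SSC sit at the top of the skeletal lineage and give rise to bone, cartilage and stroma, and BCSP lie downstream of them. In the sorting scheme in common use for mouse, surface endoglin (CD105, the product of Eng) is one of the antigens that tells BCSP from SSC. Both populations lie in or beside growth plate cartilage at this age and secrete much of the matrix around them. The products of Cytl1, Serpinf1, Itgbl1, Olfml2b and Col26a1 are secreted, whereas those of Lcp1 and Nos1 act inside the cell. Arsi encodes a sulfatase, an enzyme class that strips sulfate groups from sugars and other substrates.

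The 8 libraries held 104782544 to 168004119 counts, 24.7 to 30.6% of them from Col2a1, the main collagen of cartilage. Eng was counted at 2.53 to 3.89 counts per 1000000 counts of the library (CPM) in SSC and at 25.7 to 50.5 CPM in BCSP, in the direction of the sort. It was the 1 gene of 22153 (0.00451%) that passed the edgeR quasi-likelihood test of SSC over BCSP (log2 fold change -3.84 ± 0.21 SE, adjusted p = 1.26e-06). Tet1 was counted at 11.8 and 7.26 CPM in KO SSC rounds 2 and 1, against 19.6 and 15.6 CPM in WT SSC. In BCSP it was at 11.97 and 10.8 CPM in KO rounds 2 and 1, against 10.98 and 21.6 CPM in WT, so that the WT BCSP library of round 2 lay within the KO range. Counts over the whole gene check a targeted allele weakly. That WT BCSP library also stood apart by transcript length: its deviations from the mean of all libraries had a Spearman correlation of -0.495 with exon length across 12307 genes, so short transcripts stood high in it. The same value was 0.355 in the KO BCSP library of round 2 and between -0.244 and 0.223 in the other 6 libraries. The share of bulk RNA that a gene takes falls alike when fewer cells of a type express it and when each cell holds less of it, and these cannot be told apart here.

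The promoter windows of 4 of the genes are printed to show how far they differ in CG dinucleotides, the sites on which TET enzymes act. Each runs from 250 bases before to 50 bases after the gene start in RefSeq (GRCm38.p6, the build also called mm10), is read 5′ to 3′ on the gene's strand, and has its CG pairs in capitals.
Cytl1, chr5:37735269-37735568, plus strand: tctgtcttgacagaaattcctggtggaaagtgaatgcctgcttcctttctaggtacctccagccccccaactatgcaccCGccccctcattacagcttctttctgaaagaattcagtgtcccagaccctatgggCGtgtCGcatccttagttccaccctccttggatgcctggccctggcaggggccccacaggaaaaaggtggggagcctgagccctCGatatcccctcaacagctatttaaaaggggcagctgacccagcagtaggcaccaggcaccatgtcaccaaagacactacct
Serpinf1, chr11:75422574-75422873, minus strand: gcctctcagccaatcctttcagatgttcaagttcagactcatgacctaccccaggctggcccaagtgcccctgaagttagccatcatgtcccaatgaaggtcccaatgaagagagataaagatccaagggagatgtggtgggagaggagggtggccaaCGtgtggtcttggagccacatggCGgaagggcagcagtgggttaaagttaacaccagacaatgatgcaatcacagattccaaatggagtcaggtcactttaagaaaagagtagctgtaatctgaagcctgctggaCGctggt
Olfml2b, chr1:170644282-170644581, plus strand: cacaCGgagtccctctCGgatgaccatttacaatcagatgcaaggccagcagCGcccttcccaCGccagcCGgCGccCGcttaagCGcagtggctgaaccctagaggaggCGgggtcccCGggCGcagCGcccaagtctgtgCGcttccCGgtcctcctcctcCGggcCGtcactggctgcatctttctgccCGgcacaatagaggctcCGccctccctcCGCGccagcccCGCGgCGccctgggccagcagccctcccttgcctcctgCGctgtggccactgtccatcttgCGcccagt
Nos1, chr5:117866589-117866888, plus strand: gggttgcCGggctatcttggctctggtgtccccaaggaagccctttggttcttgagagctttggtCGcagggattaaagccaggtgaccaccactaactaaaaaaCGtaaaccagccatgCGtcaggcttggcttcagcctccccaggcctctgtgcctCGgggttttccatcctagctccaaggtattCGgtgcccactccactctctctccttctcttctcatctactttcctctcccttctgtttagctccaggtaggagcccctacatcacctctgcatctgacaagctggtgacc

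The windows of Serpinf1 and Cytl1 held 3 and 4 CG, those of Nos1 and Itgbl1 held 6 each, and that of Olfml2b held 25. Lcp1 had a window with 19 CG and a second one, at another start, with 4. Of the 32851 promoter windows in the same table, 23.3% held fewer CG than that of Serpinf1 and 81.6% fewer than that of Olfml2b. The BCSP-high genes thus spanned both sides of the median of 7 CG, and so did the starts of Lcp1. The SOX-type letters AACAAT (in 10.7% of all windows) and ACAAAG (in 18.7%) and the TATA-box letters TATAAA (in 13.6%) were looked for on both strands and occurred in none of the 7 windows of the 6 genes matched, which says only that these letters are not in these stretches. The Nos1 window lies inside the longer span annotated for that gene, so it marks one of several possible starts.

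Cytl1, which encodes a small cytokine-like protein that cartilage cells secrete, had the highest level per length of the 8 genes in both cell types. The gene lies at chr5:37735519-37739820 on the plus strand (mm10), with 1056 exon bases in 4 merged exons. CPM of Cytl1 in rounds 2 and 1 was 71.8 and 72.5 in KO SSC, 47.8 and 40.2 in WT SSC, 124 and 123 in KO BCSP, and 186 and 79.4 in WT BCSP. All SSC libraries lay below all BCSP libraries, and the highest value came from the WT BCSP library of round 2, in which short transcripts stood high. The mean was 58.1 ± 16.6 CPM in SSC and 128 ± 43.6 CPM in BCSP (SD, n = 4 each). The fitted log2 fold change of SSC over BCSP was -1.18 ± 0.25 over all 8 libraries and -0.81 without that WT BCSP library. The part of transcript length in the value of Cytl1 was not tested.

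Serpinf1 encodes pigment epithelium-derived factor (PEDF), a secreted serpin that does not inhibit proteases, restrains blood vessel growth and is needed in human for normal bone mineralisation. It lies at chr11:75409769-75422701 on the minus strand, with 2359 exon bases in 9 merged exons. In rounds 2 and 1 its CPM was 62.6 and 50.9 in KO SSC, 51.3 and 55.0 in WT SSC, 93.2 and 107 in KO BCSP, and 129 and 88.0 in WT BCSP. Every SSC library lay below every BCSP library, and the KO and WT libraries overlapped within both cell types. Its log2 fold change of SSC over BCSP was -0.92 ± 0.16.

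Itgbl1 encodes a secreted protein built of EGF-like repeats that resemble the stalk of integrin beta chains. It spans chr14:123659971-123975618 on the plus strand, with 4229 exon bases in 12 merged exons. Its CPM in rounds 2 and 1 was 31.8 and 19.6 in KO SSC, 21.8 and 17.4 in WT SSC, 43.5 and 49.2 in KO BCSP, and 42.0 and 43.8 in WT BCSP. The 4 BCSP libraries were close together, at 44.6 ± 3.14 CPM (SD, n = 4), whereas the SSC libraries spread more, at 22.7 ± 6.37 CPM, with KO SSC round 2 highest among them. The log2 fold change of SSC over BCSP was -0.99 ± 0.17.

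Olfml2b encodes a secreted olfactomedin-domain protein, one of the pair called photomedins. It lies at chr1:170644532-170682789 on the plus strand, with 3095 exon bases in 8 merged exons. Its CPM in rounds 2 and 1 was 34.1 and 35.3 in KO SSC, 22.8 and 26.6 in WT SSC, 47.6 and 84.9 in KO BCSP, and 45.0 and 50.9 in WT BCSP. The KO BCSP library of round 1 stood well above the other BCSP libraries, and no SSC library reached the lowest of them. The log2 fold change of SSC over BCSP was -0.95 ± 0.18.

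Arsi was the most abundant of the SSC-high genes, per length as well as in CPM. It encodes arylsulfatase I and lies at chr18:60911780-60918561 on the plus strand, with 2975 exon bases in 2 merged exons. Its CPM in rounds 2 and 1 was 32.6 and 47.6 in KO SSC, 51.0 and 74.0 in WT SSC, 17.9 and 17.0 in KO BCSP, and 34.8 and 33.4 in WT BCSP. SSC and BCSP overlapped, because KO SSC round 2 lay just below both WT BCSP libraries, whereas within each genotype and round SSC was the higher. The log2 fold change of SSC over BCSP was 1.04 ± 0.17.

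Col26a1 encodes a collagen with an EMI domain, a cysteine-rich module shared with the emilins of elastic matrix. It lies at chr5:136741759-136883209 on the minus strand, with 8176 exon bases in 14 merged exons. In rounds 2 and 1 it had 8.11 and 7.94 CPM in KO SSC, 8.66 and 13.7 CPM in WT SSC, 3.37 and 3.40 CPM in KO BCSP, and 7.69 and 4.82 CPM in WT BCSP. SSC and BCSP did not overlap, but WT BCSP round 2 came within a few percent of the lowest SSC library. The log2 fold change of SSC over BCSP was 1.04 ± 0.22.

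Lcp1 encodes L-plastin, an actin-bundling protein best known from white blood cells. It spans chr14:75131101-75230842 on the plus strand, with 9504 exon bases in 23 merged exons. Its CPM in rounds 2 and 1 was 22.3 and 27.4 in KO SSC, 32.6 and 31.9 in WT SSC, 16.7 and 15.1 in KO BCSP, and 17.5 and 18.3 in WT BCSP. The BCSP libraries of both genotypes were tightly grouped and all lay under the SSC libraries. The log2 fold change of SSC over BCSP was 0.75 ± 0.14.

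Nos1 encodes the neuronal nitric oxide synthase, which makes nitric oxide from arginine. It spans chr5:117781032-117958840 on the plus strand, with 11151 exon bases in 33 merged exons. In rounds 2 and 1 it had 5.48 and 9.31 CPM in KO SSC, 10.4 and 15.4 CPM in WT SSC, 3.57 and 3.87 CPM in KO BCSP, and 5.29 and 6.31 CPM in WT BCSP. KO SSC round 2 lay between both WT BCSP libraries, so the ranges overlapped, and the WT SSC libraries were the highest. The log2 fold change of SSC over BCSP was 1.07 ± 0.22. The genes annotated across Nos1, Lcp1, Itgbl1 and Col26a1 had at most 18 counts in a library, against at least 410 counts for every one of the 8 genes in every library.

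**Figure D1:**
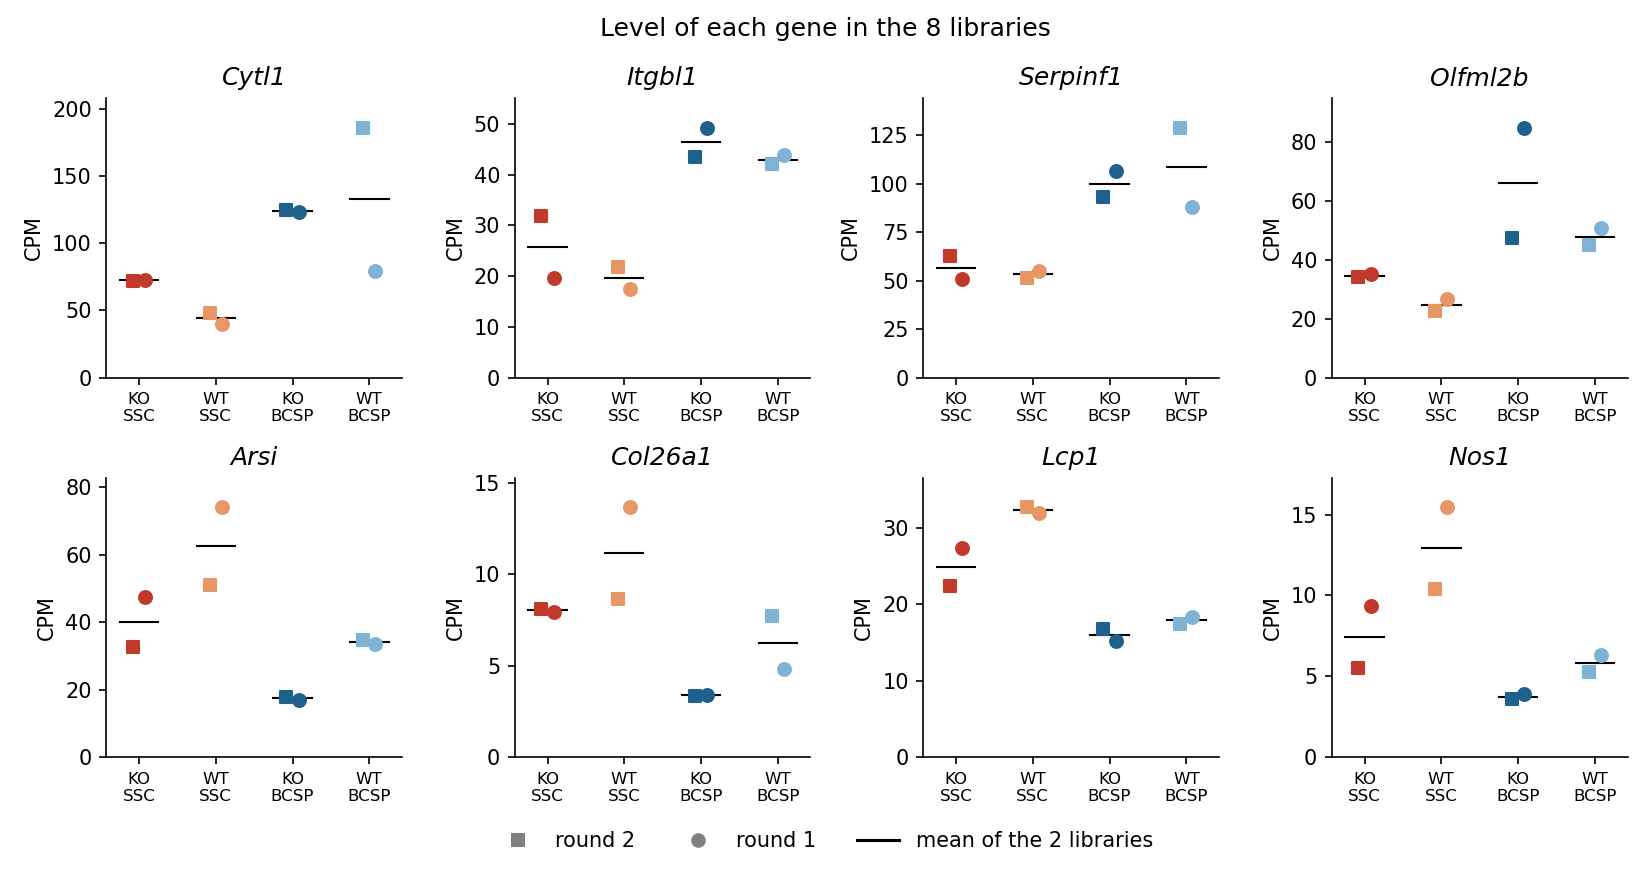
CPM (vertical axes, from 0) of the 8 genes in KO SSC, WT SSC, KO BCSP and WT BCSP, with squares for round 2, circles for round 1 and a line at the mean of the 2 libraries. The upper genes are higher in BCSP and the lower genes in SSC, and the lower genes have both KO libraries under both WT libraries within each cell type.

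In 6 of the 8 genes the 4 SSC libraries did not overlap the 4 BCSP libraries, the exceptions being Arsi and Nos1. Among all genes tested, 2.53% separated in this way in either direction, 1.48% with SSC higher and 1.05% with BCSP higher. The count for the 8 genes follows from how they were picked and is no result about them. By unadjusted p of the same contrast they ranked between place 2 (Arsi) and place 20 (Col26a1) of 22153 genes. Inside that stretch Serpinf1 was at place 5, Itgbl1 at 6, Olfml2b at 8, Lcp1 at 11, Nos1 at 14 and Cytl1 at 18.

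Within each genotype and round, where SSC and BCSP libraries share both labels, all 8 genes had the same sign in 4 of 4 pairs. The choice of the genes by these same columns makes that likely, and the share of all genes was not counted. The shared sign is therefore no result about them. The size varied among pairs by gene. Cytl1 had a log2 CPM difference of SSC minus BCSP of -0.79 and -0.77 in KO rounds 2 and 1, against -1.96 and -0.98 in WT. Col26a1 had 1.27 and 1.22 in KO, against 0.17 and 1.50 in WT, so that its smallest and its largest difference both came from WT. For both genes the pair that stood off was WT round 2, and its BCSP library held the highest BCSP value of each. Short transcripts stood high in that library, and Cytl1 has 1056 exon bases but Col26a1 has 8176. The part of transcript length in these differences was not tested. Lcp1 varied least, between 0.42 and 0.90, and Nos1 lay between 0.62 and 1.29. Arsi ranged over 0.55 to 1.48, with KO above WT in both rounds (0.87 and 1.48 in KO rounds 2 and 1, against 0.55 and 1.15 in WT). Itgbl1 and Olfml2b had their smallest difference in KO round 2, at -0.45 and -0.48, and Serpinf1 likewise, at -0.57.

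**Figure D2:**
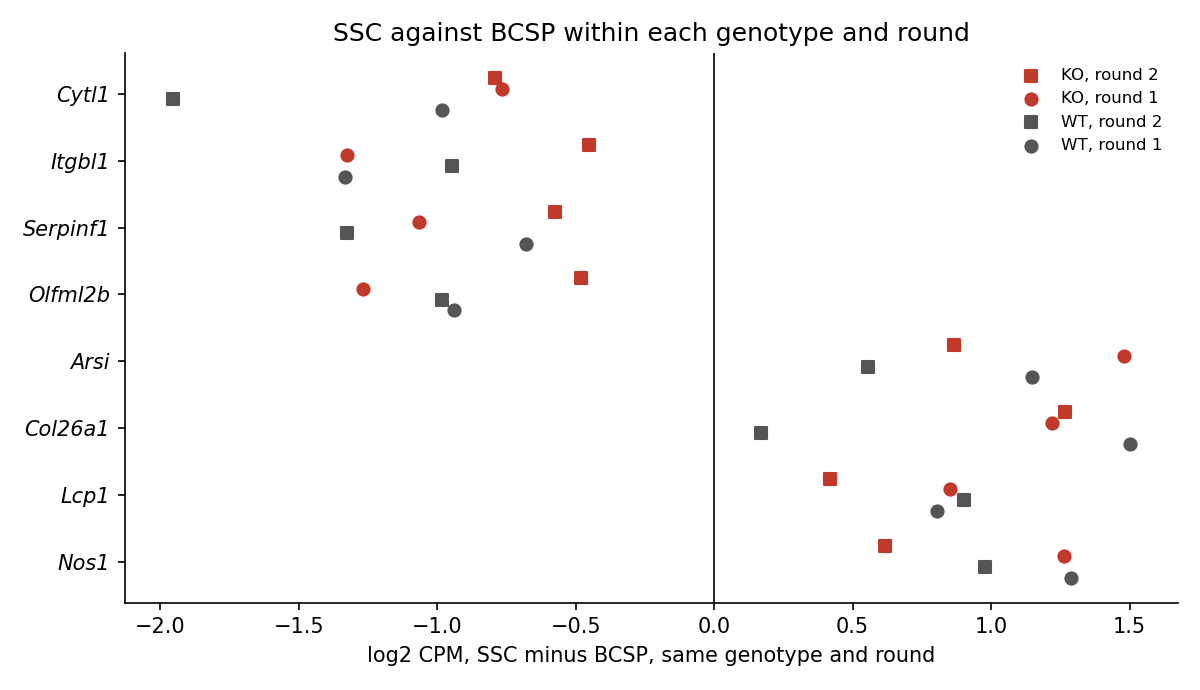
Difference in log2 CPM, SSC minus BCSP, of each gene within 1 genotype and 1 round, with red for KO, grey for WT, squares for round 2 and circles for round 1. Cytl1, Itgbl1, Serpinf1 and Olfml2b lie left of 0 in all 4 pairs and Arsi, Col26a1, Lcp1 and Nos1 right of 0, with WT round 2 farthest out for Cytl1 (-1.96) and nearest to 0 for Col26a1 (0.17).

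Levels were set beside each other per length, as CPM per kilobase of exon. In SSC the order was Cytl1 (55.0 ± 15.7, SD, n = 4), Serpinf1 (23.3 ± 2.29), Arsi (17.2 ± 5.76), Olfml2b (9.59 ± 1.94), Itgbl1 (5.36 ± 1.51), Lcp1 (3.00 ± 0.502), Col26a1 (1.17 ± 0.334) and Nos1 (0.911 ± 0.368). Serpinf1 and Arsi overlapped there, as did Arsi and Olfml2b, Olfml2b and Itgbl1, and Col26a1 and Nos1. In BCSP Cytl1 was at 121 ± 41.3 CPM per kilobase, Serpinf1 at 44.1 ± 7.70, Olfml2b at 18.4 ± 6.05, Itgbl1 at 10.6 ± 0.743, Arsi at 8.66 ± 3.23, Lcp1 at 1.78 ± 0.140, Col26a1 at 0.589 ± 0.248 and Nos1 at 0.427 ± 0.115. Itgbl1 and Arsi overlapped in BCSP, and so did Col26a1 and Nos1. Arsi thus stood at the third place in SSC and at the fifth in BCSP, while the order of the other 7 genes among themselves was the same in both cell types.

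Between genotypes, the 4 SSC-high genes lay lower in KO than in WT in each cell type. Arsi, Col26a1, Lcp1 and Nos1 each had both KO libraries below both WT libraries in SSC and again in BCSP, a pattern that 4.06% of all genes tested had. None of the 4 BCSP-high genes had KO above WT without overlap in both cell types, against 4.18% of all genes. Cytl1 and Olfml2b had both KO libraries above both WT libraries in SSC and overlapped in BCSP, and Itgbl1 and Serpinf1 overlapped in both. The share of all genes with KO above WT in SSC alone was not counted, so the pattern of Cytl1 and Olfml2b is a description only.

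Tested across all genes, 0 of the 8 passed the edgeR quasi-likelihood test of KO over WT over both cell types, in which 0.0135% of genes passed. At an unadjusted p under 0.05 there were 4 of 8 (Arsi, Nos1, Col26a1 and Olfml2b), against 7.91% of all genes. DESeq2 called 1 of 8 (Arsi), where it called 0.494% of all genes, and limma-voom called 0 of 8 (0.00451% of all genes). Arsi averaged 40.1 ± 10.6 CPM in KO SSC and 62.5 ± 16.3 CPM in WT SSC, and 17.4 ± 0.575 CPM in KO BCSP and 34.1 ± 0.973 CPM in WT BCSP (SD, n = 2 each). Its log2 fold change of KO over WT over both cell types was -0.80 ± 0.17 (edgeR adjusted p = 0.245), and its DESeq2 adjusted p was 0.0101. With edgeR and no filter on low counts the adjusted p of Arsi was 0.00137, in a fit that called 0.706% of all genes, and with limma-voom it was 0.271. The call on Arsi therefore turned on the tool and the filter, with the size nearly the same throughout.

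Nos1 had a log2 fold change of KO over WT of -0.72 ± 0.22 over both cell types (edgeR adjusted p = 0.596), Col26a1 one of -0.68 ± 0.22 (0.608) and Lcp1 one of -0.27 ± 0.14 (0.646). Among the BCSP-high genes the values were 0.48 ± 0.17 for Olfml2b (0.6145), 0.31 ± 0.24 for Cytl1 (0.736), 0.25 ± 0.17 for Itgbl1 (0.695) and -0.01 ± 0.16 for Serpinf1 (0.988). The sign for Serpinf1 turned with the scaling, to 0.0030 with DESeq2 size factors. Longer transcripts lay higher in KO across 12307 genes (Spearman 0.363 of the log2 fold change with exon length). The 4 genes that lay lower in KO have 2975 to 11151 exon bases. The part of length in these values was not tested.

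In SSC alone, 0 of 8 passed by edgeR, where 0.00451% of genes did, and by DESeq2 and limma-voom likewise 0. At an unadjusted p under 0.05 there were 3 of 8, against 1.2% of all genes: Nos1 (-0.81 ± 0.32), Arsi (-0.64 ± 0.25) and Cytl1 (0.71 ± 0.32). In BCSP alone, 0 of 8 passed by any of the 3 tools, with 0.00451% of genes past the edgeR threshold. There 2 of 8 had an unadjusted p under 0.05, against 6.19% of all genes: Arsi (-0.97 ± 0.25) and Col26a1 (-0.89 ± 0.32). The sizes moved with single libraries: Nos1 in SSC lay between -1.24 (without KO round 1) and -0.49 (without KO round 2), Arsi in SSC between -0.95 (without KO round 1) and -0.35 (without WT round 1), and Col26a1 in BCSP between -1.19 (without WT round 1) and -0.51 (without WT round 2). The value of Olfml2b in BCSP, 0.47 ± 0.27, rested on the KO libraries, at 0.00043 without round 1 and 0.86 without round 2. Cytl1 had opposite signs in the cell types, and its value in BCSP of -0.10 ± 0.32 became 0.64 without the WT BCSP library of round 2.

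**Figure D3:**
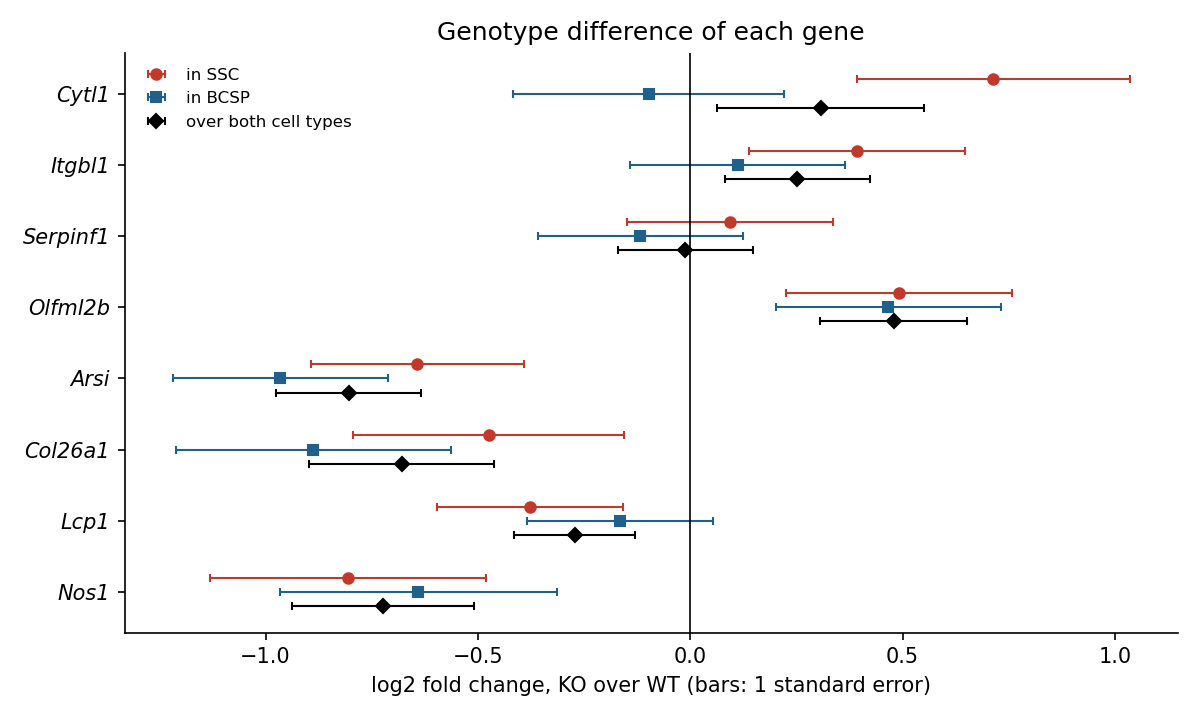
Log2 fold change of KO over WT (horizontal axis) of each gene in SSC (circles), in BCSP (squares) and over both cell types (diamonds), with bars of 1 standard error. Arsi, Col26a1, Lcp1 and Nos1 lie left of 0 in both cell types, Olfml2b lies right of 0 in both (0.49 and 0.47, the BCSP value falling to 0.00043 without KO round 1), and Cytl1 lies right in SSC (0.71) and near 0 in BCSP (-0.10).

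Whether the SSC and BCSP difference itself changed with genotype was tested as an interaction, (SSC minus BCSP in KO) minus (SSC minus BCSP in WT). None of the 8 genes passed by edgeR, DESeq2 or limma-voom (0.0% of all genes by edgeR), and 0 of 8 had an unadjusted p under 0.05 in edgeR, against 1.27% of all genes. The interaction draws on the same SSC and BCSP columns that chose the genes. A choice by the difference over both genotypes favours genes in which it is alike in KO and WT. The 0 of 8 is therefore no result about them. The largest value was that of Cytl1, at 0.81 ± 0.45 (edgeR adjusted p = 0.9999), with a 95% interval of -0.165 to 1.79. That value rested on the WT BCSP libraries, at 0.072 without round 2 and 1.29 without round 1. For Arsi the value was 0.32 ± 0.35, with an interval of -0.44 to 1.09, and for Nos1 it was -0.17 ± 0.46, with an interval of -1.16 to 0.82.

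The rounds were compared with the group held in the model. By edgeR, 0 of 8 genes passed, as by DESeq2 and limma-voom, whereas 1.76% of all genes passed by edgeR. An unadjusted p under 0.05 was found for 1 of 8, Nos1, against 11.4% of all genes. Nos1 had lower CPM in round 2 than in round 1 in 4 of 4 groups (5.48 against 9.31 in KO SSC, 10.4 against 15.4 in WT SSC, 3.57 against 3.87 in KO BCSP and 5.29 against 6.31 in WT BCSP). Its log2 fold change of round 2 over round 1 was -0.43 ± 0.19 (edgeR adjusted p = 0.389). Olfml2b was at -0.32 ± 0.16 (0.492) and Cytl1 at 0.36 ± 0.20 (0.535). Nos1, Olfml2b and Arsi passed by edgeR when either WT BCSP library was left out, at -0.49, -0.37 and -0.35 without round 1 and -0.48, -0.36 and -0.33 without round 2, where 15.8% and 15.5% of all genes passed. Without both round 2 BCSP libraries Nos1 (-0.65), Arsi (-0.53) and Itgbl1 (0.53) passed, with 7.75% of all genes.

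The relatives of the 8 genes, in 8 lists of families and pathways, lay on both sides of 0. Of their 79 genes 74 were tested, and 0 passed SSC over BCSP by edgeR. DESeq2 called 1 (Olfml2a; 0.242% of all genes) and limma-voom called 0. Before adjustment, 12 of the 74 had an edgeR p under 0.05, against 3.71% of all genes. The median log2 fold change was -0.06 over the 74 relatives and 0.01 over all genes tested.

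Olfml2a, the other photomedin gene, lay on the same side as Olfml2b. It averaged 1.03 ± 0.344 CPM in SSC and 3.46 ± 1.47 CPM in BCSP (SD, n = 4 each), which gave -1.69 ± 0.28 on the log2 scale (edgeR adjusted p = 0.215). Of the 8 olfactomedin-domain relatives tested, 5 lay below 0 and 3 above, with a median of -0.59. Olfm1, which encodes a secreted protein of the nervous system, was at 12.3 ± 1.27 CPM in SSC and 17.7 ± 3.38 CPM in BCSP (-0.51 ± 0.15, adjusted p = 0.921). Olfml3 differed by less than its spread, at 52.8 ± 11.6 CPM in SSC and 50.7 ± 11.7 CPM in BCSP.

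The abundant serpins lay nearer to 0 than Serpinf1, a difference between genes that was not tested. Serpinh1, the collagen chaperone of the endoplasmic reticulum, was at 2047 ± 494 CPM in SSC and 2102 ± 521 CPM in BCSP, a log2 fold change of -0.02 ± 0.21. Serpina3n was at -0.02 ± 0.22 and Serpine2 at -0.33 ± 0.19. Of the 12 other serpins 9 lay below 0 and 3 above, with a median of -0.08. Among the reported receptors and partners of PEDF, the lipase gene Pnpla2 was at -0.05 ± 0.19, the laminin receptor gene Rpsa at -0.28 ± 0.23, the Wnt co-receptor gene Lrp6 at 0.00 ± 0.17 and Plxdc2 at -0.49 ± 0.17, and the fifth, Plxdc1, was at 0.58 ± 0.39. Of these 5 genes 2 lay above 0 and 3 below.

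Most sulfatases lay on the other side of 0 from Arsi. Of 13 sulfatases and activators tested, 10 lay below 0 and 3 above, with a median of -0.09. Sulf2, which trims sulfate from heparan sulfate outside the cell, was at 106 ± 14.3 CPM in SSC and 163 ± 21.3 CPM in BCSP (-0.62 ± 0.16, edgeR adjusted p = 0.796). The lysosomal sulfatase gene Arsa was at 0.00 ± 0.16, and Sumf1, the activator that all sulfatases need, was at -0.02 ± 0.17.

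Around Nos1, the C-type natriuretic peptide receptor gene Npr2 had nearly the same mean in both cell types, at 128 ± 23.7 CPM in SSC and 129 ± 23.0 CPM in BCSP. Prkg2, the cGMP-dependent kinase gene needed for growth plate chondrocytes to mature, was at 37.9 ± 11.5 CPM in SSC and 21.5 ± 5.07 CPM in BCSP (0.82 ± 0.20, edgeR adjusted p = 0.768). Prkg2 passed when edgeR was run without a filter, as 0.199% of all genes did. Ddah1, which breaks down inhibitors of nitric oxide synthases, was at -0.30 ± 0.13. Of the 17 genes of nitric oxide and cGMP tested, 8 lay above 0 and 9 below, with a median of -0.01.

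Among the actin cross-linkers beside Lcp1, the plastin gene Pls3 was at 43.9 ± 4.65 CPM in SSC and 49.5 ± 1.13 CPM in BCSP (-0.17 ± 0.14), the opposite side from Lcp1. Fscn1, which encodes the bundling protein fascin, was at 272 ± 57.7 CPM in SSC and 208 ± 65.6 CPM in BCSP (0.41 ± 0.17), and Actn1 and Actn4 were at -0.05 ± 0.14 and 0.07 ± 0.15. The median of the 6 cross-linkers tested was 0.01. Beside Col26a1, the emilin genes Emilin1, Emilin2 and Emilin3 were at -0.10 ± 0.23, -0.10 ± 0.22 and -0.15 ± 0.19, and Emid1, whose product has the same domain order as collagen XXVI, was at 0.58 ± 0.29. Of 5 EMI-domain genes tested 1 lay above 0. Of the 8 integrin beta chains, 5 lay below 0 and 3 above, with Itgb1 at -0.12 ± 0.14, Itgb5 at -0.25 ± 0.16, Itgb3 at -0.20 ± 0.27 and Itgb4 at 0.78 ± 0.26.

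**Figure D4:**
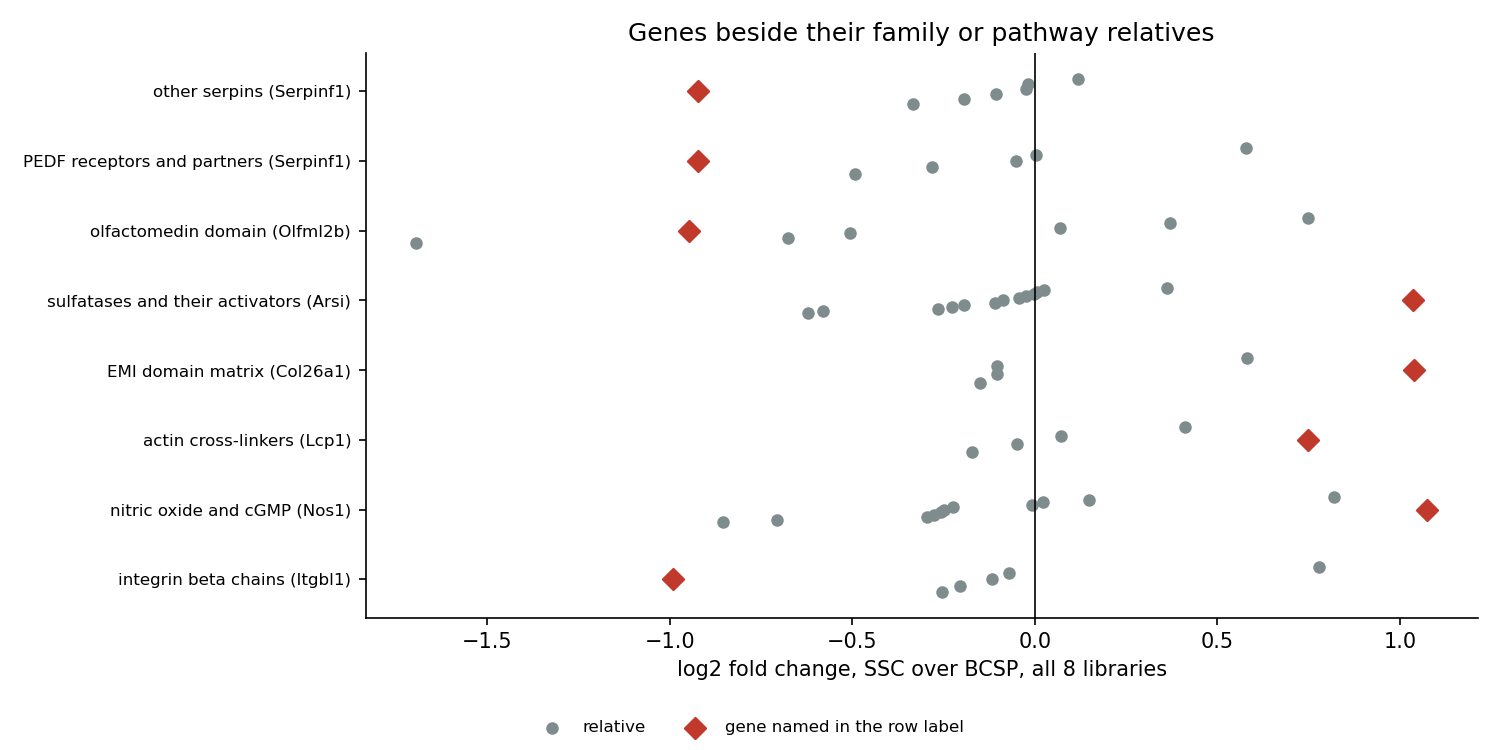
Log2 fold change of SSC over BCSP over all 8 libraries (horizontal axis) of each of 7 genes (diamonds; Serpinf1 stands in 2 rows and Cytl1 has no list) and of its family or pathway relatives with a mean of at least 1 CPM (circles), one list per row. Most relatives lie near 0, with Olfml2a (-1.69) farther out than Olfml2b itself.

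By genotype, 0 of the 74 relatives passed KO over WT over both cell types by edgeR, DESeq2 or limma-voom, with 12 at an unadjusted p under 0.05 by edgeR, against 7.91% of all genes. Of the 74, 36 lay above 0 and 38 below. The 17 genes of nitric oxide and cGMP had 10 above and 7 below, the 8 of the olfactomedin domain 6 above and 2 below, the 6 actin cross-linkers 2 above and 4 below, and the 5 EMI-domain genes 2 above and 3 below. Some named relatives lay on the side of their gene: Emid1 at -0.75 ± 0.29 beside Col26a1, Fscn1 at -0.58 ± 0.17 beside Lcp1, Olfml2a at 0.89 ± 0.28 beside Olfml2b and Prkg2 at -0.45 ± 0.20 beside Nos1. Others lay opposite, such as Npr2 at 0.37 ± 0.15 and Nos2, the inducible synthase gene, at 0.98 ± 0.32 beside Nos1. The edgeR adjusted p of these 6 lay between 0.596 (Fscn1) and 0.622 (Prkg2).

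Lcp1 was set beside markers of white blood cells, since L-plastin is named for them. The 12 leukocyte markers summed to 3.31 to 15.7 CPM in the SSC libraries and 2.86 to 9.001 CPM in the BCSP libraries, less than Lcp1 alone in each of the 8 libraries. Ptprc, the gene of the pan-leukocyte antigen CD45, was at 0 in WT BCSP round 2 and reached 1.09 CPM in WT SSC round 1. That WT SSC library also held neutrophil markers at a summed 172 CPM, against 0.139 to 9.35 CPM in the other SSC libraries and 0.188 to 43.0 CPM in BCSP. Lcp1 was at 32.6 CPM in WT SSC round 2, where the leukocyte markers summed to 4.41 CPM, and at 31.9 CPM in WT SSC round 1, where they summed to 15.7 CPM. Without WT SSC round 1 the log2 fold change of Lcp1, SSC over BCSP, was 0.74. For KO over WT in SSC, Lcp1 was at -0.38 ± 0.22. All 12 leukocyte markers (median -1.56, against 0.01 over all genes) and all 6 neutrophil markers also lay below 0 there. Of the WT SSC libraries only round 1 had marker sums above both KO SSC libraries. In WT SSC round 2 the leukocyte sum was 4.41 CPM, against 3.31 and 5.15 CPM in KO rounds 2 and 1. The neutrophil sum was 0.139 CPM in WT SSC round 2, against 1.33 and 9.35 CPM in KO. In BCSP Lcp1 was at -0.17 ± 0.22 (KO over WT). There 9 leukocyte markers lay above 0 and 3 below (median 0.68), and all 6 neutrophil markers lay above. No leukocyte or neutrophil marker passed by edgeR in either cell type. The part of white blood cells in the Lcp1 values was not tested.

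**Figure D5:**
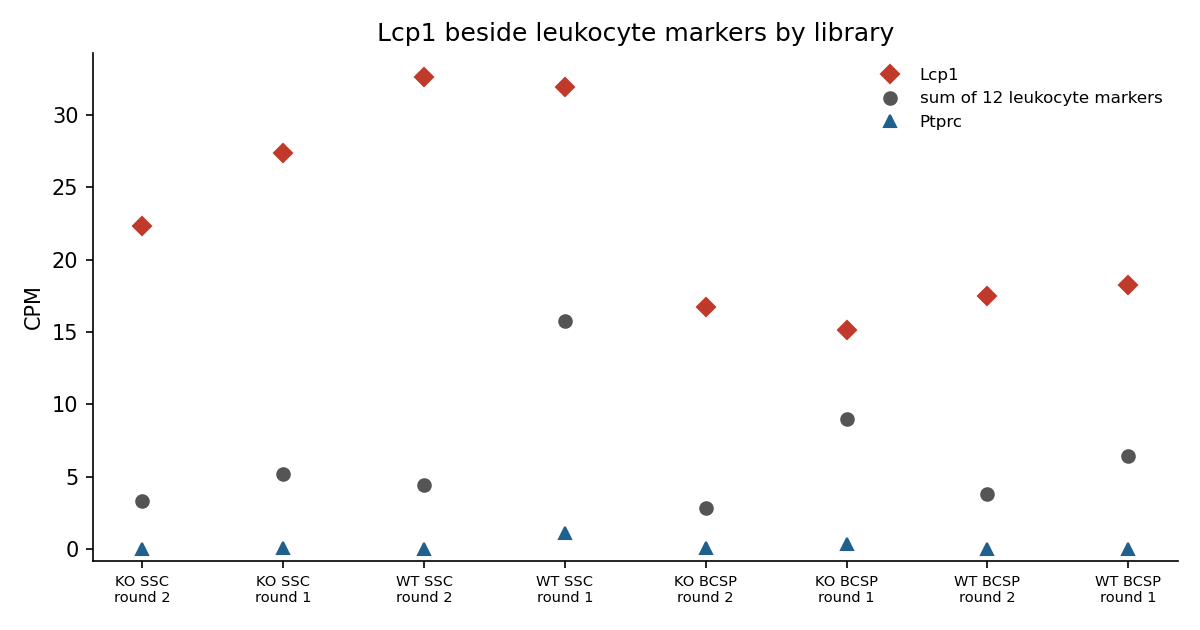
CPM (vertical axis) of Lcp1 (diamonds), of the sum of 12 leukocyte markers (circles) and of Ptprc (triangles) in each of the 8 libraries. Lcp1 lies above the summed markers throughout and is at 32.6 and 31.9 CPM in WT SSC rounds 2 and 1, of which round 1 has the highest marker sum (15.7 CPM).

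Markers of nerve and muscle, other tissues known to express Nos1, were set beside it. The 6 Schwann cell and neuron markers summed to 5.37 to 8.43 CPM in SSC and 4.98 to 5.61 CPM in BCSP, and the 6 skeletal muscle markers to 9.85 to 26.0 CPM in SSC and 7.89 to 25.5 CPM in BCSP, above Nos1 itself in each of the 8 libraries. Of the 5 muscle markers tested 5 lay above 0 in SSC over BCSP, with 0 past the threshold by edgeR, DESeq2 or limma-voom and 0 at an unadjusted p under 0.05 by edgeR. Among them Ckm and Myh3 were barely counted, at no more than 0.139 and 0.188 CPM in any library. The 6 Schwann cell and neuron markers were split in SSC over BCSP, 3 above 0 and 3 below, with a median of -0.08. In KO over WT, where Nos1 lay below 0, all 6 Schwann cell and neuron markers also lay below 0, with a median of -0.76 against 0.02 over all genes and 0 past the threshold by edgeR. Of the 5 muscle markers 3 lay below 0 there, Acta1 at -1.93 ± 0.37 (edgeR adjusted p = 0.217, called by DESeq2) and Tnnt3 at -0.68 ± 0.24 among them. The part of nerve and muscle in the Nos1 values was not tested.

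Some markers of neighbouring skeletal cells lay on the sides of the 8 genes and others were split. All 6 perichondrium, tendon and fibrous markers lay below 0, the side of the BCSP-high genes, with a median of -0.54 against 0.01 over all genes. Their summed level was 2150 to 3139 CPM in SSC and 3051 to 4102 CPM in BCSP. DESeq2 called 1 of the 6 (Dcn, the proteoglycan decorin gene, at -0.58 ± 0.16), limma-voom called 0, and edgeR called 0 with 5 under 0.05 before adjustment, against 3.71% of all genes. The 4 hypertrophic chondrocyte markers lay above 0, the side of the SSC-high genes, with a median of 0.68. They summed to 359 to 1303 CPM in SSC and to 373 to 689 CPM in BCSP, and 0 passed by edgeR, DESeq2 or limma-voom, with 2 at an unadjusted p under 0.05 by edgeR. The sums in KO and WT SSC were 1303 and 1213 CPM in round 1, against 359 and 650 CPM in round 2. In KO round 2 the sum was lower in SSC (359 CPM) than in BCSP (373 CPM). Col10a1, the collagen gene that defines hypertrophic cartilage, was at 1.15 ± 0.45, but in KO round 2 it had 185 CPM in SSC and 213 CPM in BCSP. The 7 chondrocyte markers had a median of 0.09, and 5 of them lay above 0. The 6 osteoblast markers were split, 3 above and 3 below, with a median of -0.07, Sp7 at 0.49 ± 0.22 and Col1a1 at -0.47 ± 0.17. The part of any of these cell types in the values of the 8 genes was not tested.

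The genes of one direction varied together over the 8 libraries, as their choice makes likely. Pearson correlations of log2 CPM were 0.74 to 0.90 over the 6 pairs of BCSP-high genes, 0.84 to 0.97 over the 6 pairs of SSC-high genes and -0.97 to -0.63 over the 16 mixed pairs. The genes most like each were taken by the same measure among 12638 genes, over 8 libraries that differ in cell type, genotype and depth, and are a description. For Cytl1 it was Ass1, whose enzyme helps to remake arginine, at 0.98, with 3.91 ± 1.05 CPM in SSC and 6.92 ± 1.94 CPM in BCSP, followed by Ccdc102a and Tcea3. Itgbl1 was followed most closely by Fhl1, a LIM-domain gene, at 0.96, then by Eif4e3 and by Sfrp2, a secreted Wnt modulator gene. Serpinf1 was followed by Tafa5, Srpx2 and Hpgd, each at 0.96, with Srpx2, which encodes a secreted sushi-repeat protein, at 179 ± 17.3 CPM in SSC and 285 ± 55.3 CPM in BCSP. Olfml2b was most like Rasd1, at 0.99, then Endod1 and Dnajc18.

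Of the SSC-high genes, Arsi was most like Prelp, a small proteoglycan gene of cartilage, at 0.98, with 560 ± 135 CPM in SSC and 402 ± 70.2 CPM in BCSP. St8sia6 and Wnt5b came next, the first a sialyltransferase gene and the second a Wnt ligand gene of growth plate cartilage. Nos1 was most like Smim31 (0.98), then St5 and St8sia6, so that St8sia6, at 1.65 ± 0.658 CPM in SSC and 0.818 ± 0.245 CPM in BCSP, stood near both Arsi and Nos1. Col26a1 was most like Rsph1 (0.99), then Kat2a and Gm10138. Lcp1 was most like Tmem201 (0.97), then Kif7, a Hedgehog pathway gene of the primary cilium, and Magel2.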

How the data were processed

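Total RNA of sorted SSC and BCSP from KO and WT femurs was measured in 8 libraries, 2 per group. The authors deposited whole-number counts per gene. STAR, featureCounts and DESeq2 with mm10 are listed per the submitters' processing notes, without versions or roles; the annotation and the strand of counting are not given in the sources used here, so reads of opposite strands cannot be told apart. Of the table's columns of per-sample values all were used. Group and round came from the titles. Column labels spelt SCC and BCP were read as SSC and BCSP, since exactly 1 title matched each. The table carries HTSeq in its name where the notes list featureCounts, so the counting program is not settled.

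Counts were scaled by TMM and tested in R 4.3.3 with edgeR 4.0.16 (quasi-likelihood, robust; filterByExpr with a minimum count of 10 and total of 15), with DESeq2 1.42.0 and limma 3.58.1 as alternatives. All 8 libraries entered each main model, and p-values were adjusted over 22153 genes (Benjamini-Hochberg, threshold 0.05). Shares of all genes by DESeq2 are of the genes to which it gave an adjusted p. These were 20864 for KO over WT over both cell types and 15281 for SSC over BCSP. Shares with no filter are of 33146 genes. Fold changes are KO over WT, SSC over BCSP and round 2 over round 1, ± SE. CPM use TMM-scaled totals and log2 CPM a prior count of 2. Exon lengths and positions came from GENCODE M21. The test was checked on simulated counts. Alternatives were other scaling, no filter, the other tools, the round as a block, and libraries left out.

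The members and lists were chosen with earlier results of these data known. Named were the 8 genes, from each list the genes past the threshold and the 4 highest by CPM per kilobase (some of these are not reported here), and the 3 genes most like each of the 8 among those of at least 1 CPM. Emid1, Fscn1, Olfml2a, Prkg2, Npr2, Nos2 and Plxdc1 were picked for single values after those were seen.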

Additional observations from a re-analysis of the deposited data

How the results depend on the processing

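The log2 fold changes of SSC over BCSP of the 8 genes kept their direction under every alternative run, with Cytl1 between -1.32 and -0.81 when 1 library was left out. The alternatives refit the columns that chose the genes, so a kept direction was likely from the start and is no result about them. Of 664 values of the 8 genes under the alternatives, 618 kept direction and side of the threshold, 35 turned in sign and 11 newly passed. The counts of genes past the threshold shifted as follows, and the cause was not tested. KO over WT over both cell types called 3 genes, against 234 with no filter, 103 with DESeq2, 1 with limma-voom, 11 without both round 2 BCSP libraries, and 1 to 12 when 1 library was left out. In SSC it called 1 gene, against 4 with no filter, 10 with DESeq2, 0 with limma-voom (284 at an unadjusted p under 0.05) and 1 to 4 without 1 library. In BCSP it called 1, against 38 with no filter, 14 with DESeq2 and 1 to 2 without 1 library. Round 2 over round 1 called 390, against 861 with no filter, 925 with DESeq2, 1856 without both round 2 BCSP libraries and 275 to 3909 without 1 library.

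With the round as a replicate block the counts were 28 over both cell types, 2 in SSC, 3 in BCSP and 2 for the interaction (0 without the block), and none of the 8 genes passed. Round numbers need not pair the samples: differences between rounds correlated at 0.059 between KO BCSP and WT BCSP and up to 0.645 between other groups, and the labels do not say what a round shares.

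Sign changes were among small values. Cytl1 in BCSP (KO over WT) was 0.028 with limma-voom, 0.64 without both round 2 BCSP libraries and -0.58 to 0.64 without 1 library. Serpinf1 over both cell types was 0.0030 with DESeq2 or its size factors, 0.16 without both round 2 BCSP libraries and -0.10 to 0.13 without 1. Serpinf1 in BCSP was 0.28 without both and -0.37 to 0.18 without 1, in SSC -0.079 to 0.23, in the interaction -0.18 and -0.089 to 0.45, and between rounds -0.0012 to 0.24. The interaction of Olfml2b was -0.013 with DESeq2 or its size factors, -0.25 without both round 2 BCSP libraries and -0.38 to 0.48 without 1, that of Itgbl1 -0.15 to 0.58 and that of Nos1 -0.61 to 0.14. Itgbl1 in SSC was -0.015 to 0.69. Col26a1 between rounds was -0.038 with limma-voom, -0.30 without both and -0.22 to 0.23 without 1, and Lcp1 -0.12 to 0.038. Each group had 2 libraries, and the 8 genes had at least 410 counts in each library. The part of depth in these results was not tested.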
